A study of Mus musculus with 18 samples.

Results

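The effect common to both steroids and both times was taken as the difference between all 12 arrays of RPE/choroid from steroid-injected eyes and all 6 arrays from eyes given balanced salt solution (BSS, the vehicle), which together are the 18 arrays of the series. RPE/choroid is the retinal pigment epithelium, the pigmented cell layer behind the photoreceptors, with the vascular layer beneath it. Of the steroid arrays, 6 held RNA after dexamethasone (DEX, 10 μg) and 6 after triamcinolone acetonide (TAA, 25 μg), each given as an intravitreal dose in 1 μL, and 3 of each were collected at day 7 (1 week postinjection) and 3 at day 30 (1 month postinjection). Each of the 6 groups of treatment and day therefore had 3 arrays, labelled as biological replicates, and per the methods the 3 samples of best RNA quality in each group were hybridized. All mice were C57BL6/J males, given in the labels as 2 months old. Per the methods the front of the eye, the retina and the outer muscles were cut away, and the sclera was pulled out after lysis with the choroid probably still on it, so the RNA may hold little choroid. The doses differed, so steroid and dose cannot be told apart.

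Dexamethasone and triamcinolone acetonide are synthetic glucocorticoids. They bind the glucocorticoid receptor, which moves to the nucleus, binds DNA at glucocorticoid response elements and raises genes such as Fkbp5, Tsc22d3 and Per1, while it restrains inflammatory genes. In the eye these drugs are used against macular edema and inflammation, and cataract and raised intraocular pressure are known side effects.

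Every value below is a log2 value relative to the median that its probe set had over the 18 arrays, so 0 is the middle of the series and no expression level is kept. For this reason the presence of RPE markers could not be checked by level. In the differences between arrays, 14 RPE genes had a median steroid minus BSS value of 0.018 (log2), with 8 above and 6 below 0, and Rpe65, the visual cycle isomerase, had 0.0019 (SE 0.06). A pair of control arrays stood apart. BSS day 30 replicates 1 and 3 had means of 2.97 and 2.79 over 24 rod photoreceptor genes, against -0.40 in BSS day 30 replicate 2 and between -0.999 and -0.46 in the 3 BSS arrays of day 7. Steroid arrays ranged from -1.11 to 2.74. BSS day 30 replicate 3 also had the highest mean of 15 lens genes (2.63), and BSS day 30 replicate 1 the lowest mean of 11 endothelial genes (-0.72). RNA quality was compared through the 3′ and 5′ control probe sets: the 3′ minus 5′ value of Gapdh was lower by 0.18 in the steroid arrays (two-sided exact permutation test, p = 0.44) and that of beta-actin by 0.28 (p = 0.274).

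**Figure D1:**
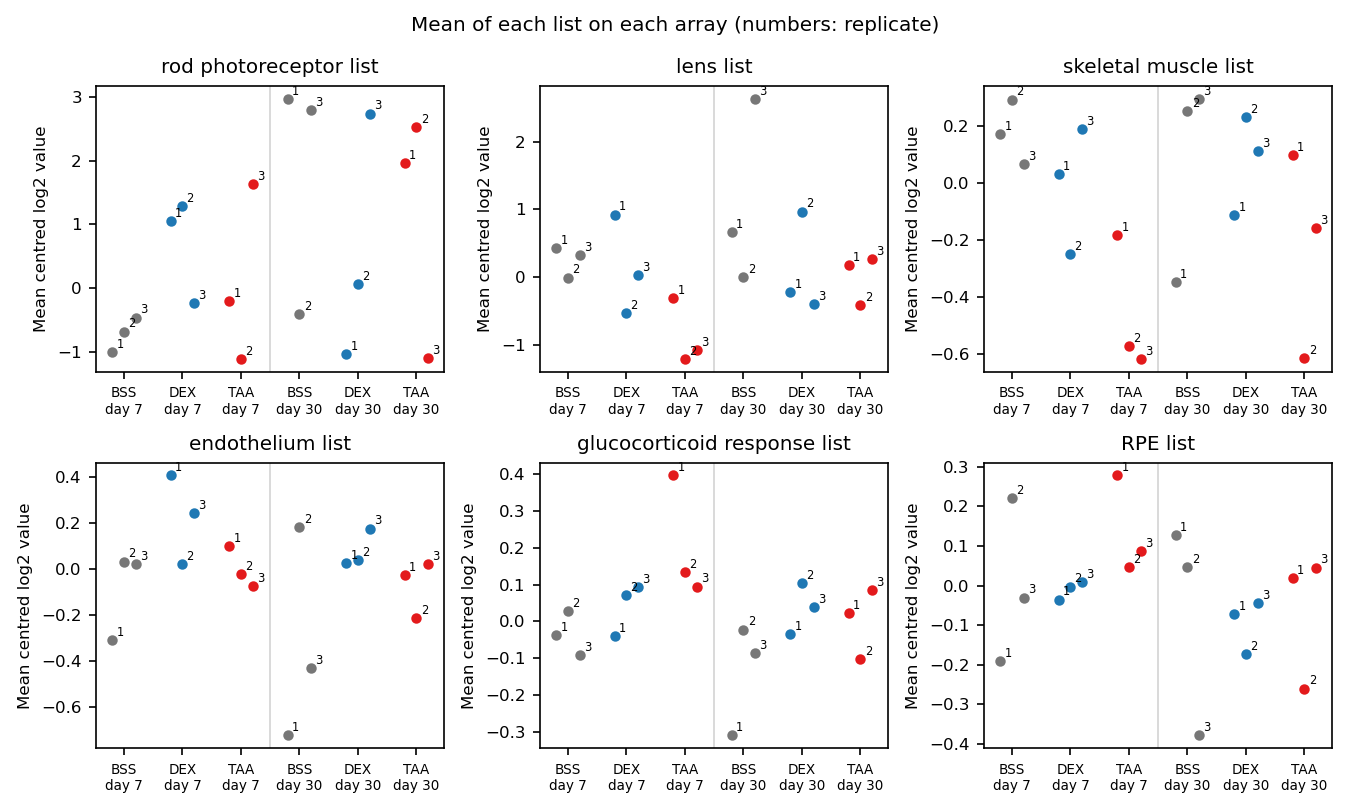
Mean centred log2 value of 6 gene lists (vertical axis) on each of the 18 arrays (horizontal axis, 6 groups of 3 arrays; grey BSS, blue DEX, red TAA; small numbers give the replicate). Rod means of BSS day 30 replicates 1 and 3 are 2.97 and 2.79, and the lens mean of BSS day 30 replicate 3 is 2.63.

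No probe set passed the test between the steroid and the BSS arrays after adjustment. Over 45101 probe sets limma called 0 after adjustment by Benjamini-Hochberg (0%, smallest adjusted p = 0.999). A pooled t-test of the 12 steroid against the 6 BSS arrays, after each day's mean was subtracted, also gave 0 with the same adjustment. That test did not count day in its degrees of freedom, and the study's own t-test compared 1 steroid with BSS at 1 time. A difference is called nominal below where its p in limma, before adjustment, was at most 0.05. There were 1789 nominal probe sets (3.97%), 1027 with a higher value after steroid (2.28%) and 762 with a lower one (1.69%). An even spread of p-values would give 2255, and the pooled t-test described above gave 2115 at the same threshold. The study asked for a nominal p together with a fold of at least 1.5, which 32 probe sets met (0.071%), 7 higher (0.0155%) and 25 lower (0.0554%). That split rested on single control arrays: 3 probe sets were higher without BSS day 30 replicate 1, and 40 of 55 were higher without BSS day 30 replicate 3. The median size of the difference over all probe sets was 0.055 on the log2 scale and its median SE was 0.077. Except for 1 gene after TAA alone, the genes named below are therefore described by their values and none of them is a call. The gene lists below were chosen with earlier results of these arrays known. Some members, among them crystallins, Lcn2, Saa3, Chil3, Sln and Trdn, had been listed by the study for TAA at 1 week. List counts set beside all genes are therefore descriptions and not independent tests. Permutation p-values are two-sided and exact, over all 7056 ways to pick the BSS arrays within days, for single probe sets chosen for their small p.

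**Figure D2:**
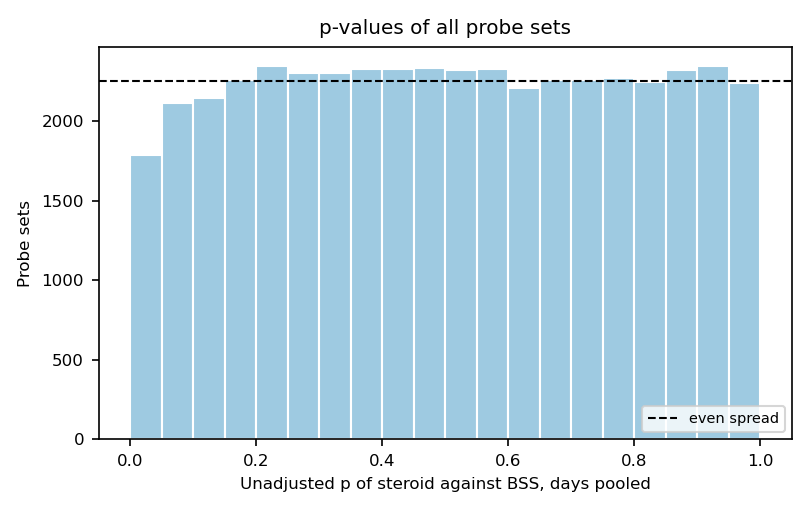
Number of probe sets (vertical axis) in each bin of the p (before adjustment) of steroid against BSS with days pooled (horizontal axis), over 45101 probe sets. The lowest bin holds 1789 probe sets, below the dashed line of 2255 that an even spread gives.

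Each day gave the same count. Within day 7, where 6 steroid arrays stood against 3 BSS arrays, limma called 0 probe sets (0%, 1537 nominal, 3.41%), and within day 30 it called 0 (0%, 2077 nominal, 4.61%). Without BSS day 30 replicate 2, the within-day 30 count was 85. The test of the difference in the steroid effect between day 30 and day 7 also called 0 (0%, 1835 nominal, 4.07%). Steroid and BSS arrays did not overlap in 2.2% of probe sets at day 7 and in 1.06% at day 30. In 4 of 45101 probe sets (0.00887%) the 6 steroid arrays lay on the same side of all 3 BSS arrays on both days. Dgcr2, a membrane protein gene of the DiGeorge region, was the one above (0.00222%), with BSS values of -0.24, -0.25 and -0.12 at day 7 and 0.01, -0.02 and -0.04 at day 30, and steroid minus BSS differences of 0.17 and 0.14. Atxn7l1 was 1 of the 3 below (0.00665%), with differences of -0.23 and -0.19, and the other 2 probe sets below were unnamed. Arrays lay on opposite sides on the 2 days in 3 probe sets (0.00665%), among them Nfkbiz, a regulator of NF-κB target genes, at -0.12 at day 7 and 0.31 at day 30.

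Genes that the glucocorticoid receptor is known to induce mostly had higher values after steroid, by small amounts. Of 26 measured members of the glucocorticoid response list, 24 had a value above 0, against 51.8% of 18194 genes (48.2% were below 0), and the median was 0.15 against 0.0033 over all genes. In the fit over 18194 genes 0 genes passed (0%); 6 members were nominally higher (2.79% of all genes were) and 0 were nominally lower (1.69%, 4.48% in both directions). These were Arrdc2, Klf9, Crispld2, Tsc22d3, Zfp36 and Sult1a1. The promoter windows of Sgk1, Sult1a1 and Tsc22d3 are shown first because they hold the letters of the receptor's element or of its half-site within 250 bases before the start of a transcript (RefSeq, GRCm38.p6, written 5′ to 3′ on the strand of the gene, with each match in capitals).
Sgk1, chr10:21993640-21993889, plus strand: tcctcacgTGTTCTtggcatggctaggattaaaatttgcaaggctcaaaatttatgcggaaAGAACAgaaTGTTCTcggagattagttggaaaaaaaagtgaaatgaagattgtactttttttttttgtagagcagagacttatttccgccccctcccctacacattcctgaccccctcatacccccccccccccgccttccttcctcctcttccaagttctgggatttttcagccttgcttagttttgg
Sult1a1, chr7:126676419-126676668, minus strand: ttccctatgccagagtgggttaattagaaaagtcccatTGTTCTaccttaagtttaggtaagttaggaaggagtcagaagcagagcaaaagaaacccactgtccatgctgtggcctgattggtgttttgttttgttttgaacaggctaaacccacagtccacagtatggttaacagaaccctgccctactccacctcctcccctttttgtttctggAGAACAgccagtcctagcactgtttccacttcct
Tsc22d3, chrX:140600523-140600772, minus strand: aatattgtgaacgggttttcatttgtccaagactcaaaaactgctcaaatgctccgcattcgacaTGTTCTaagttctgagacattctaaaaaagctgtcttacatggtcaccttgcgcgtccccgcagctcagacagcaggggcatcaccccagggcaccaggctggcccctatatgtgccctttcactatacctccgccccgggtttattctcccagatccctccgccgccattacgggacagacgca
The search used the half-sites AGAACA and TGTTCT and the full element, which is AGAACA, 3 bases of any kind and TGTTCT. The half-sites are each other's reverse complement, so that both strands are covered and a full element also counts as half-sites. The Sgk1 window held 1 full element and 3 half-sites, Sult1a1 held 2 half-sites and Tsc22d3 held 1. Of 32851 windows of all genes, 16.1% held a half-site and 3 (0.00913%) a full element. Of 36 windows of the 23 list members matched, 8 (22.2%) held a half-site and 1 the full element, and some of these windows belonged to the same gene. Counted by gene, 5 of the 23 members (21.7%) held a half-site, against 18.2% of all genes. Bcl6 and Fam107a, not printed here, were among these members. A match is a description of the letters in the window and not of binding.

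Arrdc2, an arrestin-domain gene induced by glucocorticoids, had the smallest p of the list. Its values were -0.35, -0.23 and -0.46 in the BSS arrays of day 7, with the 6 steroid arrays between -0.07 and 0.51 (median 0.19), and -0.53, -0.04 and 0.04 in the BSS arrays of day 30, with the steroid arrays between -0.14 and 0.42 (median 0.06). The steroid arrays lay above all BSS arrays at day 7 and overlapped them at day 30. The pooled difference was 0.41 (SE 0.11, 95% interval 0.19 to 0.64, exact permutation p = 0.00326), a fold of 1.33, and the difference was 0.54 at day 7 and 0.28 at day 30. Tsc22d3, which encodes the glucocorticoid-induced leucine zipper that mediates anti-inflammatory effects, read 0.18, 0.06 and 0.17 in BSS at day 7, where the steroid arrays spanned 0.11 to 0.81 (median 0.25). At day 30 it read -0.41, -0.14 and -0.35 in BSS and -0.29 to -0.06 (median -0.14) after steroid. The ranges overlapped on both days, and the pooled difference was 0.17 (SE 0.08).

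Sult1a1, a sulfotransferase, read -0.31, 0.01 and 0.14 in BSS at day 7 against -0.16 to 1.63 (median 0.23) after steroid, and -0.58, -0.12 and -0.39 in BSS at day 30 against -0.35 to 0.49 (median -0.04). Its difference was 0.43 (SE 0.20), at 0.44 and 0.41 on the 2 days, and 1 steroid array of day 7 was far above the rest. Klf9, a transcription factor, had 0.15 (SE 0.07), Crispld2, a secreted protein, 0.38 (SE 0.18, and 0.20 without BSS day 30 replicate 1), and Zfp36, which speeds the decay of inflammatory mRNA, 0.30 (SE 0.14). Fkbp5, the receptor's co-chaperone and a common marker of glucocorticoid exposure, had 0.21 (SE 0.11, 95% interval -0.03 to 0.45), with 1 steroid array of day 7 at 0.96 and a median of 0.05 over the 6. Sgk1, the kinase whose window holds the full element, had 0.03 (SE 0.06, 95% interval -0.10 to 0.16). Per1, which is both a clock gene and a glucocorticoid target, had 0.55 at day 7 and -0.05 at day 30, a nominal interaction (3.89% of all genes had one), and 0.25 (SE 0.13) pooled.

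The count of this list rested on few arrays. Without BSS day 7 replicate 1 the nominally higher members went from 6 to 2, and without BSS day 30 replicate 1 to 2 as well, with 22 still above 0 in the latter case and a median of 0.09. Nominal probe sets over the whole array also went from 1789 to 1305 without BSS day 7 replicate 1. Here and below, list counts with an array left out have no share of all genes from the same fit beside them. Among 9 genes of the receptor and its cofactors, the receptor gene Nr3c1 itself had 0.03 (SE 0.05). Of the 9, 1 was nominally lower (1.69% of all genes were) and 0 were nominally higher (2.79%). The lower one was Hsp90aa1, a chaperone of the receptor, at -0.11 (SE 0.05), and at -0.07 and not nominal without BSS day 30 replicate 1.

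**Figure D3:**
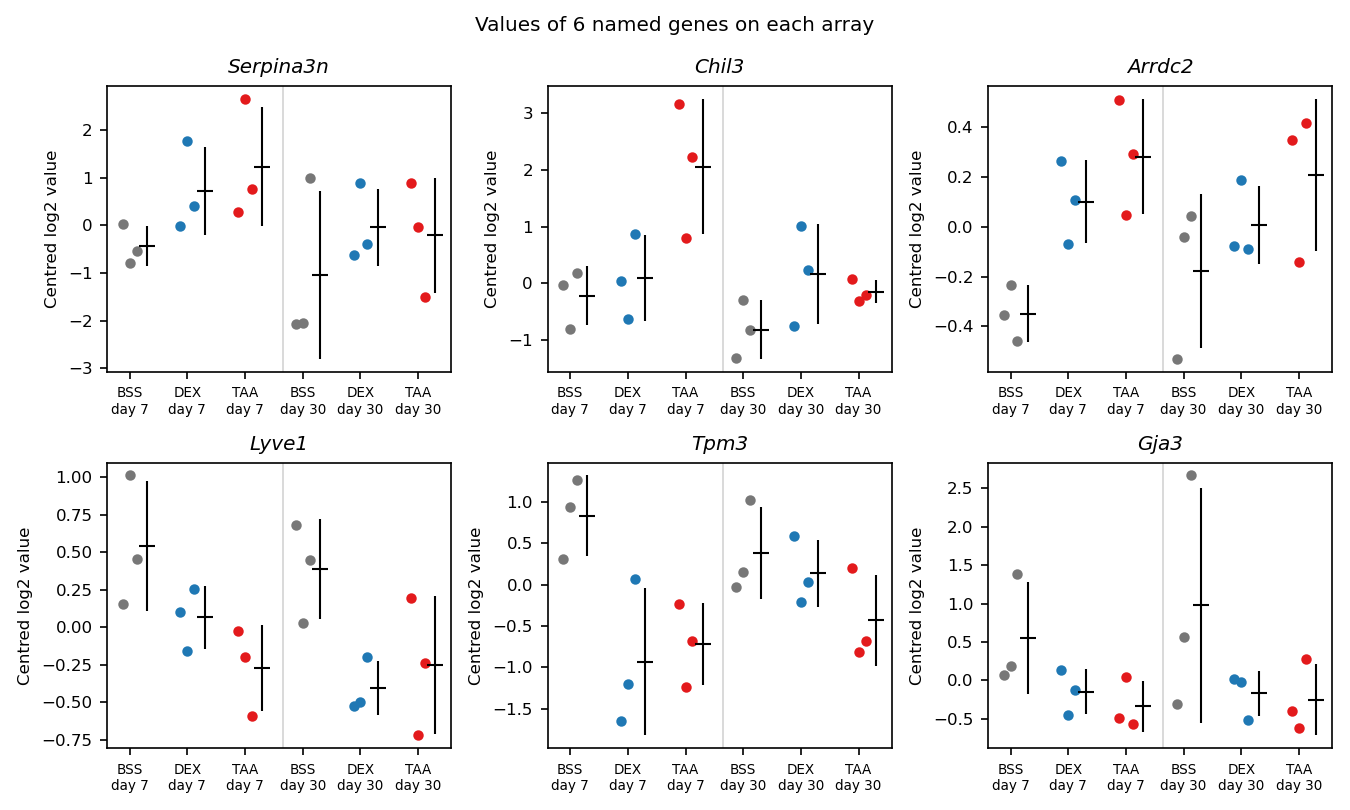
Centred log2 values (vertical axes) of 6 named genes on each array (grey BSS, blue DEX, red TAA; 3 points per group; horizontal bars are group means and vertical bars 1 SD). Arrdc2 stands at -0.46 to -0.23 in BSS day 7 and between -0.07 and 0.51 in the 6 steroid arrays of that day, and Lyve1 has 0 of 12 steroid arrays above the median of the BSS arrays.

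Acute phase genes, which respond to inflammation and tissue injury, held several of the largest positive differences. Serpina3n, a serine protease inhibitor made by reactive glia and liver, read 0.02, -0.80 and -0.55 in BSS at day 7 and -2.07, -2.05 and 1.0 in BSS at day 30, against -0.02 to 2.66 (median 0.59) and -1.50 to 0.89 (median -0.20) after steroid. All 12 steroid arrays were above the BSS median of their own day, but BSS day 30 replicate 3 exceeded every steroid array of day 30. The difference was 1.17 (SE 0.47, 95% interval 0.17 to 2.16, exact permutation p = 0.0437), a fold of 2.24. Chil3, a chitinase-like protein of alternatively activated macrophages, had 1.06 (SE 0.42, exact permutation p = 0.033), with its highest readings, 3.16 and 2.23, in TAA day 7 replicates 1 and 3. Of 12 steroid arrays, 11 were above the BSS median of their own day. Lcn2, an iron-binding acute phase protein, had the largest difference of the list, 1.77, with an SE of 1.04 (95% interval -0.40 to 3.95). BSS arrays read -1.81, -1.63 and -1.80 at day 7 and -1.17, -1.66 and 4.62 at day 30, and steroid arrays -0.85 to 2.91 (median 2.25) and -1.79 to 4.89 (median 1.14). At day 7 all 6 steroid arrays were thus above all 3 BSS arrays, while at day 30 a single BSS array, replicate 3, was near the top. Saa3 had 1.63 at day 7 and -0.25 at day 30, a nominal interaction. Of 15 acute phase genes, 12 had a value above 0 (51.8% of all genes did), with a median of 0.05. Chil1, Chil3, Steap4 and Serpina3n, 4 of the 15, were nominally higher (2.79% of all genes were). That count was 1 without BSS day 30 replicate 1 and 7 without BSS day 30 replicate 3, and the median was 0.15 without BSS day 7 replicate 2. Steap4, a metalloreductase, had 0.21 (SE 0.08), and 0.11 without BSS day 30 replicate 1.

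Lens genes had lower values after steroid in all measured members. Crystallins are the structural proteins of the lens, and Bfsp1 and Gja3 encode a filament protein and a gap junction protein of its fibre cells. Of 15 genes of the lens list, 15 had a value below 0 (48.2% of all genes did), with a median of -0.80. Of the 15, 7 were nominally lower (1.69% of all genes were) and 0 passed. The study had already listed several of these crystallins as lower after TAA at 1 week, so the count is not independent of that list. Crygd had -1.35 (SE 0.53), Crygb -1.09 (SE 0.42) and Cryba1 -1.60 (SE 0.64). Gja3 is not a member of the list. It read 0.07, 0.18 and 1.39 in BSS at day 7 and -0.31, 0.57 and 2.67 in BSS at day 30, against -0.56 to 0.14 (median -0.29) and -0.63 to 0.27 (median -0.21) after steroid. None of 12 steroid arrays was above the BSS median, and the difference was -0.99 (SE 0.31, exact permutation p = 0.00524). The other probe set of Gja3 had -0.02 (SE 0.07).

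The lens means of the arrays ranged from -0.01 to 2.63 in BSS, with a median of 0.38, and from -1.21 to 0.97 after steroid, with a median of -0.27. The steroids did not share the lean evenly. With DEX arrays only against BSS, 0 of 15 lens genes were nominally lower, 1 was above 0 and the median was -0.57. With TAA arrays only, 11 were nominally lower, 0 were above 0 and the median was -1.15. Without BSS day 30 replicate 3, 1 lens gene instead of 7 was nominally lower, 2 had a value above 0, and the list median was -0.43, Gja3 had -0.60, Crygb -0.71 and Crygd -0.90. With the means of the rod, lens and muscle lists as covariates, a fit that takes out the lens list's own mean, Crygb had -0.10, Crygd -0.08 and Gja3 -0.50. The part of carried-over lens tissue in these differences was not tested. Here and below, fewer cells of a type and less RNA per cell cannot be told apart in pieces of tissue.

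Skeletal muscle genes mostly had lower values as well. Of 31 members 29 had a value below 0 (48.2% of all genes did), with a median of -0.20. Of the 31, 8 were nominally lower (1.69% of all genes were) and 0 nominally higher (2.79%). Tpm3, a slow-fibre tropomyosin, is not a member of the list, and neither are Myh7 and Myl2 below. It had -1.09 (SE 0.29, exact permutation p = 0.00354) in its probe set of smallest p, a fold of 2.13. It read 0.30, 0.93 and 1.26 in BSS at day 7 against -1.65 to 0.06 (median -0.94) after steroid, and -0.03, 0.15 and 1.02 in BSS at day 30 against -0.82 to 0.58 (median -0.09). All steroid arrays were below BSS at day 7 and the ranges overlapped at day 30, with differences of -1.66 and -0.53, a nominal interaction. Of the 5 probe sets of Tpm3, 2 had -1.25 and -1.09 and the other 3 were between 0.01 and 0.13.

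Tnnt1, the slow troponin T, had -0.73 (SE 0.22), Myh2 and Myh7, the myosins of fast oxidative and slow fibres, -0.70 (SE 0.23) and -0.64 (SE 0.22), Myl2, a slow myosin light chain, -0.73 (SE 0.26), Trdn, a calcium release protein, -0.62 (SE 0.24), and Myh8, the perinatal myosin, -0.55 (SE 0.17, exact permutation p = 0.00992). Myh8 had -0.91 at day 7 and -0.19 at day 30, again a nominal interaction. The other probe sets of Trdn had between -0.42 and -0.03. Muscle means ranged from -0.35 to 0.30 in BSS and from -0.62 to 0.23 after steroid. The lean of the list was not shared evenly by the steroids. With DEX arrays only against BSS, 15 of 31 genes were above 0, 2 were nominally lower and the median was -0.02. With TAA arrays only, 0 were above 0, 17 were nominally lower and the median was -0.42. Without BSS day 7 replicate 2, 3 muscle genes instead of 8 were nominally lower, and without BSS day 30 replicate 1 the count was 12 and the median -0.32. With the rod, lens and muscle means as covariates, the list had 21 of 31 genes above 0 and Myh2 had -0.39. That fit takes out the muscle list's own mean, so its sign count cannot bear on the direction of the list. The part of carried-over muscle in these differences was not tested.

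Vessel genes had higher values after steroid. Pecam1, an adhesion protein of endothelial junctions, read -0.13, 0.04 and -0.11 in BSS at day 7 and -0.64, -0.01 and -0.15 in BSS at day 30, against -0.01 to 0.23 (median 0.14) and -0.14 to 0.26 (median 0.02) after steroid. The ranges overlapped on both days, and the difference was 0.23 (SE 0.08). Of 11 endothelial genes 11 had a value above 0 (51.8% of all genes did), with a median of 0.23, and 6 were nominally higher (2.79% of all genes were). Among these 6 were Esam at 0.30 (SE 0.11), Emcn at 0.38 (SE 0.15) and Vwf, the von Willebrand factor, at 0.40 (SE 0.16). Without BSS day 30 replicate 1 the count was 1, the median 0.14 and Pecam1 0.14, and without BSS day 30 replicate 2 it was 11. With BSS day 30 replicates 1 and 3 both left out, the control arrays with the highest rod means, it was 0, 9 of 11 genes were above 0 and the median was 0.06. With DEX arrays only against BSS, 8 endothelial genes were nominally higher and the median was 0.32. With TAA arrays only, 1 was nominally higher and the median was 0.12. Ephb4, a receptor of venous endothelium that is not a member of the list, had 0.21 (SE 0.05, exact permutation p = 0.000567), at 0.32 at day 7 and 0.11 at day 30.

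Pericytes and smooth muscle cells form the outer vessel wall. Of their 8 genes 7 had a value above 0 (51.8% of all genes did) and 2 were nominally higher (2.79% of all genes were). These 2 were Myh11, the smooth muscle myosin, and Pdgfrb, a growth factor receptor. The leading probe set of Myh11 read 0.10, -0.29 and 0.17 in BSS at day 7 and -2.39, -0.99 and -0.11 in BSS at day 30. It had a difference of 0.11 at day 7 and 1.28 at day 30. The other Myh11 probe set had 0.08 (SE 0.07) pooled. When BSS day 30 replicate 1 was left out, the pooled difference of the leading probe set went from 0.69 to 0.35 and Pdgfrb from 0.21 to 0.12. In that fit the list had 0 genes nominally higher and 1 nominally lower. The list's median went from 0.20 to 0.14 in that fit, and leaving out BSS day 7 replicate 3 gave 5 genes nominally higher and a median of 0.31. Lyve1, a hyaluronan receptor of lymphatic endothelium and of some tissue macrophages, had the opposite direction. It read 0.15, 1.01 and 0.46 in BSS at day 7 and 0.68, 0.03 and 0.45 at day 30, against -0.59 to 0.25 (median -0.09) and -0.72 to 0.20 (median -0.37) after steroid. None of 12 steroid arrays was above the BSS median. The difference was -0.68 (SE 0.15, 95% interval -0.99 to -0.37, exact permutation p = 0.00085), at -0.64 and -0.72 on the 2 days and at -0.64 for DEX and -0.73 for TAA, and the pooled value lay between -0.77 and -0.59 when any 1 array was left out and was -0.54 with the rod, lens and muscle means as covariates. The other Lyve1 probe set had -0.26 (SE 0.10). Of 13 macrophage and microglia genes 6 were above and 7 below 0, with 0 nominal, and Retnla, a secreted product of alternatively activated macrophages, had -0.68 (SE 0.23, exact permutation p = 0.0176).

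**Figure D4:**
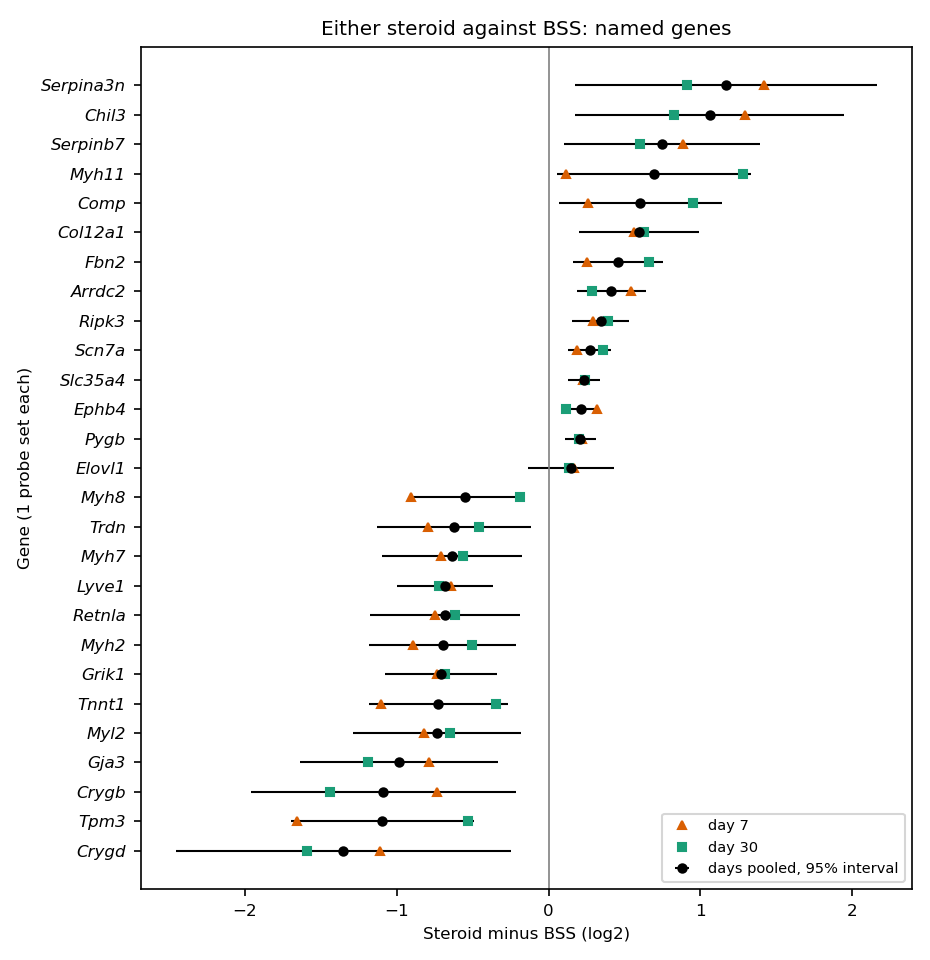
Steroid minus BSS on the log2 scale (horizontal axis) for the 27 named genes, 1 probe set each (vertical axis). Black points are the pooled difference with its 95% interval, orange triangles day 7 and green squares day 30; Lyve1, Grik1, Col12a1, Slc35a4 and Pygb have both days close together, while Myh11 (0.11 and 1.28) and Tpm3 (-1.66 and -0.53) do not.

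Matrix genes had higher values as well. Glucocorticoid-treated eyes are known to lay down basement membrane and fibrillar matrix in the outflow tissue. Genes of that response formed a list of 10 measured members, all above 0 (51.8% of all genes were). Their median was 0.20, and 3 were nominally higher (2.79% of all genes were). Angptl7, a secreted protein induced by steroids in the trabecular meshwork, read 0.26, 0.92 and 0.03 in BSS at day 7 against 0.65 to 1.20 (median 0.89) after steroid, and -1.73, -0.51 and -0.47 in BSS at day 30 against -0.77 to -0.03 (median -0.28). The ranges overlapped on both days, and the difference was 0.55 (SE 0.17, 95% interval 0.18 to 0.91), at 0.52 and 0.58. Col4a1 and Col4a2, which encode the main chains of basement membrane collagen, had 0.26 (SE 0.12) and 0.31 (SE 0.11), and Fn1, fibronectin, 0.24 (SE 0.12). Without BSS day 30 replicate 1, Angptl7 had 0.37, Col4a1 0.12, Col4a2 0.19 and the list a median of 0.13, while its median was 0.31 without BSS day 30 replicate 3.

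Fibrillins and elastic fibre proteins gave 9 of 9 measured genes above 0 (51.8% of all genes were), with a median of 0.19. Of the 9, 2 were nominally higher (2.79% of all genes were), Fbn2 and Mfap2. That count ran from 1, without BSS day 30 replicate 1, to 4, without BSS day 7 replicate 3. Fbn2, the fetal fibrillin, had 0.46 (SE 0.14, exact permutation p = 0.0095), with all steroid arrays above BSS at day 30 and overlap at day 7. Col12a1, a collagen that lies on the surface of fibrils, had 0.60 (SE 0.19, exact permutation p = 0.012), at 0.56 and 0.63 on the 2 days and above the BSS median in 12 of 12 steroid arrays; its other 3 probe sets had between -0.06 and 0.28. Comp, a cartilage and tendon matrix protein, had 0.60 (SE 0.26), and 0.26 without BSS day 30 replicate 1, the array in which it read -1.92. Dpt, a dermatopontin of fibroblasts, had -0.61 (SE 0.26).

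Retinoic acid genes had 12 of 13 members above 0 (51.8% of all genes were) and a median of 0.21. Aldh1a2 and Aldh1a1, which make retinoic acid, had 0.44 (SE 0.16) and 0.39 (SE 0.19). These 2 members were nominally higher (2.79% of all genes were). The count was 0, the median 0.09 and Aldh1a2 0.27 without BSS day 30 replicate 1. Of 18 clock genes 10 were above and 8 below 0 in the pooled comparison, with a median of 0.007 and 0 nominal in either direction, and 14 were above 0 without BSS day 30 replicate 1. Their median was 0.12 at day 7 and -0.05 at day 30, and Per1 and the repressor Cry2 (0.20 and -0.17 on the 2 days) had a nominal interaction.

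**Figure D5:**
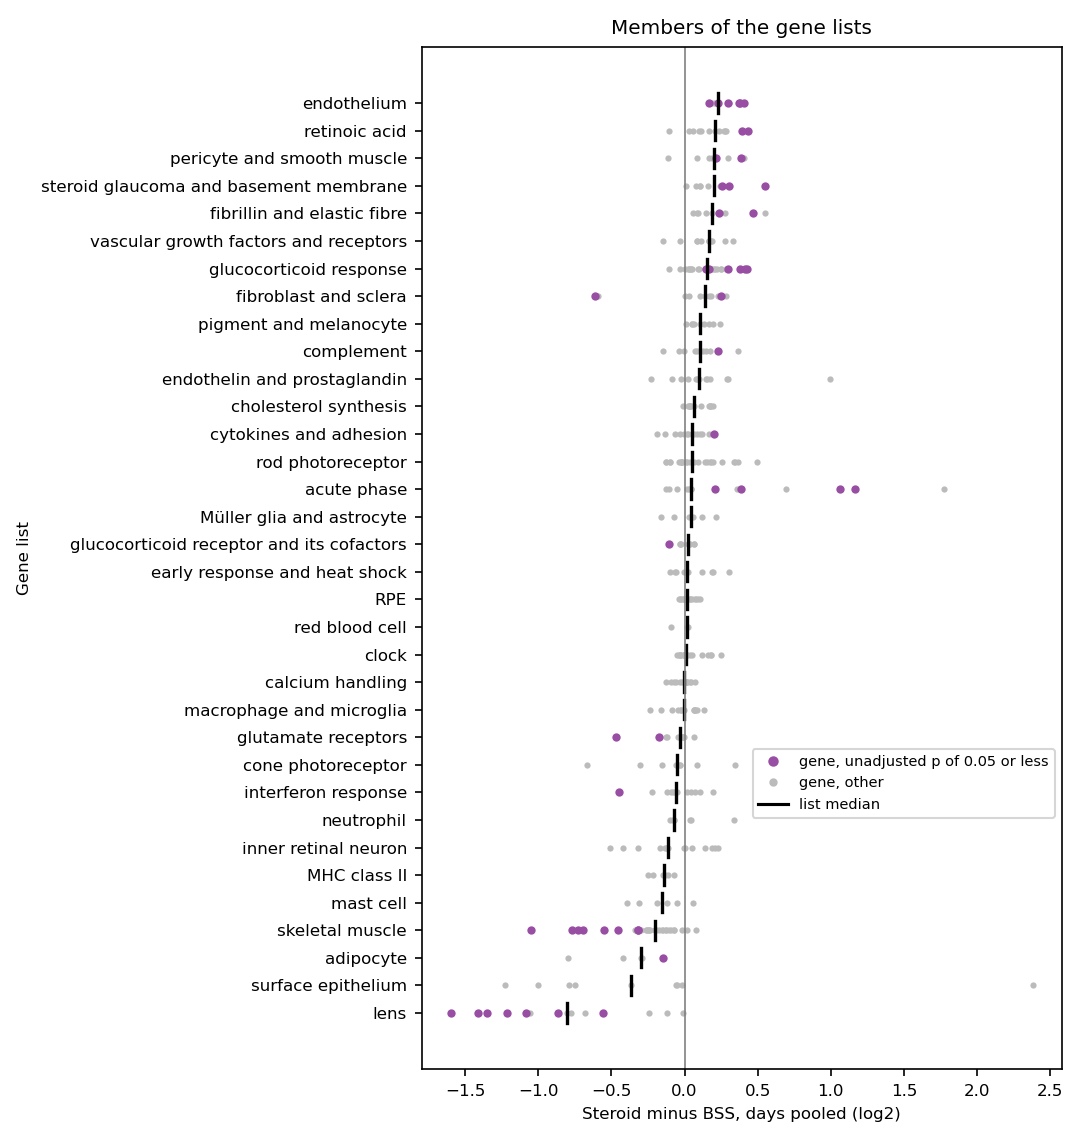
Steroid minus BSS with days pooled (log2, horizontal axis) for each measured gene of the 34 lists (vertical axis, ordered by median). Purple points are nominal differences, grey points are not, and black bars are list medians, from -0.80 for lens to 0.23 for endothelium; the far right grey point of surface epithelium is Krt12 at 2.38 (SE 1.46).

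Some of the smallest p-values belonged to small differences. Slc35a4, of the nucleotide sugar transporter family, had the smallest p among the probe sets named by rule (exact permutation p = 0.000283). Its probe set read -0.26, -0.19 and -0.28 in BSS at day 7 and -0.27, -0.01 and -0.13 in BSS at day 30, against -0.17 to 0.06 (median 0.01) and -0.02 to 0.21 (median 0.12) after steroid. All steroid arrays were above BSS at day 7, and the difference was 0.23 (SE 0.05), a fold of 1.17, but the other 4 probe sets of the gene had between -0.08 and 0.19. Pygb, a glycogen phosphorylase, had 0.21 (SE 0.05, exact permutation p = 0.000567) and Scn7a, an atypical sodium channel, 0.27 (SE 0.07, exact permutation p = 0.00142). Ripk3, a kinase of necroptosis, had 0.34 (SE 0.09, exact permutation p = 0.00128), with 12 of 12 steroid arrays above the BSS median of their own day. Serpinb7, a protease inhibitor, had 0.75 (SE 0.31).

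Grik1, a kainate-type glutamate receptor subunit, had lower values after steroid. It read 0.43, 0.51 and 0.69 in BSS at day 7 against -0.47 to 0.03 (median -0.13), and 0.92, 0.62 and -0.29 in BSS at day 30 against -0.76 to 0.41 (median -0.32). The steroid arrays were all below BSS at day 7 and overlapped them at day 30, where BSS replicate 3 was low. The difference was -0.71 (SE 0.18, exact permutation p = 0.00255), and the other probe set had -0.23 (SE 0.11). Of 11 glutamate receptor genes 10 had a value below 0 (48.2% of all genes did), with a median of -0.03. Grik1 and Grin2c, 2 of the 11, were nominally lower (1.69% of all genes were). The direction of the list rested on 1 control array: without BSS day 30 replicate 1, 7 of 11 genes were above 0 and the median was 0.01. Elovl1, a fatty acid elongase that entered by the rule for genes common to both steroids, had 0.15 (SE 0.14, exact permutation p = 0.318) in its probe set of smallest p. The study named another Elovl1 probe set, as lower with both steroids at 1 week. With both days pooled, as here, that probe set had -0.18 (SE 0.24), and the remaining 2 had -0.03 and 0.00.

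The pooled difference averages DEX and TAA, which shared the 6 BSS arrays. Against BSS with days pooled, limma called 0 probe sets for DEX (0%, 1658 nominal, 3.68%) and 1 for TAA (0.00222%, 1626 nominal, 3.61%). That probe set belonged to Arpp21, a phosphoprotein of neurons. Its BSS arrays read 0.03, 0.36 and 0.11 at day 7 and 0.05, 0.36 and 0.31 at day 30. TAA arrays read -0.57, -0.55 and -0.59 at day 7 and -0.24, -0.60 and -0.44 at day 30, below every BSS array of their day, and DEX arrays read 0.10, -0.03 and 0.07 and 0.05, -0.15 and -0.32. The difference from BSS was -0.70 (SE 0.09, adjusted p = 0.0234 in limma) for TAA and -0.25 (SE 0.09) for DEX, and -0.47 (SE 0.12) for both together. The call for TAA was lost when the replicate number was added as a block, and without any of BSS day 7 replicates 2 and 3, BSS day 30 replicates 2 and 3, DEX day 7 replicate 2, the 3 TAA arrays of day 7, or TAA day 30 replicates 2 and 3.

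TAA minus DEX, with days pooled, called 0 probe sets (0%, 1530 nominal, 3.39%), and 52 met the thresholds of the study, 50 of them lower after TAA. For Arpp21 the difference was -0.45 (SE 0.09, limma adjusted p = 1). Muscle genes had a median of -0.42 after TAA and -0.02 after DEX, and Myh2 had -1.07 and -0.33 (TAA minus DEX -0.74, 95% interval -1.18 to -0.30, limma adjusted p = 1). Lens genes had medians of -1.15 and -0.57. MHC class II genes, which present antigen, had a median of -0.45 after TAA and 0.11 after DEX. In the pooled comparison 6 of 6 were below 0 (48.2% of all genes were) with 0 nominal. Their pooled median was -0.14, or -0.07 without TAA day 7 replicate 1. The glucocorticoid response list had a median of 0.18 after TAA and 0.12 after DEX, and the endothelial list 0.12 and 0.32. For genes in which both steroids gave close values, the interval of TAA minus DEX was -0.46 to 0.28 for Lyve1, -0.18 to 0.07 for Slc35a4, -0.67 to 0.25 for Col12a1 and -0.28 to 0.42 for Fbn2, so differences of up to these bounds are not excluded.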

How the data were processed

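RNA of 18 RPE/choroid samples was hybridized to Affymetrix mouse genome arrays, 1 array per sample. The deposited log2 values were made by the authors with RMA in GeneSpring, with the median over all samples as baseline for each probe set (largest median of a probe set in the file 5e-07). All 45101 probe sets are present, replicates were not pooled, and no source used here gives the probe set definition version. RMA is also named in the submitters' processing notes. Because levels are not kept, a filter on weak signal could not be repeated, and the number of arrays limits the precision.

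Groups came from the labels. Steroid against BSS was fitted over all 18 arrays with limma 3.58.1 (R 4.3.3, lmFit and eBayes) with day as a fixed block, giving 15 residual degrees of freedom and 3.3 prior ones, with Benjamini-Hochberg adjustment over 45101 probe sets and calls at an adjusted p under 0.05. Within-day differences and their interaction, each steroid, and TAA minus DEX were fitted the same way. Single probe sets were also tested by an exact permutation of treatment within days (7056 splits). GEO's platform annotation gave 1 gene for 34958 probe sets, several for 932 and none for 9211, and 34754 probe sets matched RefSeq GRCm38.p6 by gene ID with 0 symbols changed. For gene lists, the probe sets of a gene were averaged (18194 genes), and 411 of 447 entries in 34 lists were matched.

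Named genes were, per direction, the 12 of smallest p with priority to a fold of at least 1.5 and a p of at most 0.05, with 1 probe set per gene, up to 4 members of smallest p from each list described, and Myh8, Tpm3, Elovl1 and Fbn2, which the study gives as common to both steroids. The study gives Fbn2 as common at 1 month and the others at 1 week. Other genes named were chosen after their values were seen. The members and lists were chosen with earlier results of these data known. Alternatives changed the block, weights, prior, scaling, filter, marker covariates, test and arrays used. Labels call the arrays biological replicates. The fits were tested on simulated data. Python 3.11.15 with pandas 2.3.3, numpy 2.4.6 and matplotlib 3.10.9 was used for sequences and figures.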

Additional observations from a re-analysis of the deposited data

Results flagged for a closer look

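For each of 27 named genes, 3 sets of 6 arrays (BSS of both days, steroid at day 7 and steroid at day 30) were searched for a single array far from the rest. Of these 81 sets 4 had one, where chance gives about 1 in 20. Ripk3 read -0.657 in BSS day 30 replicate 1, with the nearest BSS array at -0.223. Myh7 read -1.35 in DEX day 30 replicate 3, with the nearest steroid array of that day at -0.216. The lens genes Crygb and Crygd read 0.914 and 1.24 in DEX day 30 replicate 2, with the nearest steroid arrays of that day at -0.264 and -0.563.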

How the results depend on the processing

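The pooled comparison called 0 probe sets under every alternative run, the replicate block included, and 0 without any 1 array. The count at the study's thresholds, 32, was 56 after quantile normalization, 56 with rod, lens and muscle means as covariates, 19 with DEX arrays only, 73 with TAA arrays only, 184 with day 7 arrays only and 73 with day 30 arrays only. Leaving out 1 array gave 27 (TAA day 7 replicate 3) to 60 (BSS day 30 replicate 2). The nominal count, 1789, was 812 in the larger-SD part of the probe sets, where fewer were tested, 3740 with the 3 covariates, 1190 with DEX only and 1141 with day 30 only, and 1305 (without BSS day 7 replicate 1) to 2825 (without BSS day 7 replicate 2). With BSS day 30 replicates 1 and 3 left out, chosen after seeing the data, these counts were 137 and 3219. Leaving out 1 array gave 0 to 85 calls within day 30 and 0 to 4 for the interaction, both highest without BSS day 30 replicate 2, and 0 to 1 after TAA. The cause was not tested. With the replicate number as a block, the TAA count went from 1 to 0. Over 18 same-number pairs the deviations correlated between -0.694 and 0.246 (median -0.133; 6 over 0.1), so the numbers do not pair the arrays. None of the 27 named genes reversed direction under any of these alternatives, but members of lists did: leaving out 1 array took the rod genes above 0 from 15 of 24 to between 3 and 22, the glutamate receptor genes from 1 of 11 to 7, and the lens genes from 0 of 15 to 2. Precision is limited by the number of arrays, with a median SE of 0.077 (log2) per probe set, and weak signals could not be filtered because levels are not kept.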

Other observations

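Several other lists had few or no nominal members, and some leaned to one side. Over all genes 51.8% were above 0 and 48.2% below, 2.79% were nominally higher and 1.69% nominally lower. A single nominal member in a list of 10 to 16 genes is therefore not read as a result about the list. Of 9 pigment genes 9 had a value above 0 after steroid, with a median of 0.108 and 0 nominal. The median was 0.0545 without BSS day 30 replicate 1, and 4 genes were nominally higher without BSS day 7 replicate 2. Without that last array 2825 probe sets instead of 1789 were nominal. Of 13 cholesterol synthesis genes 12 were above 0 with a median of 0.0646 and 0 nominal, and 8 were above 0 without BSS day 7 replicate 2. Of 12 vascular growth factors and receptors 10 were above 0 with a median of 0.168 and 0 nominal, with a median of 0.0852 without BSS day 30 replicate 1 and 5 nominally higher without BSS day 30 replicate 2. Among 16 cytokine and adhesion genes, 11 were above 0 and 1, the adhesion molecule Vcam1, was nominally higher at 0.20, and 0 were without BSS day 7 replicate 2. Of 12 interferon response genes 7 were below 0 and Ifi204, an interferon-inducible DNA sensor, was nominally lower at -0.45. The median of that list, -0.0592, was 0.0713 without BSS day 30 replicate 3. Of 10 complement genes 7 were above 0 and 1, the inhibitor Serping1, was nominally higher at 0.23. Without BSS day 30 replicate 1, Serping1 had 0.15 and the list's median went from 0.105 to 0.0374.

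Rod genes had a median of 1.16 at day 7 and -0.981 at day 30, with 0 of 24 nominal in the pooled comparison, and the day 30 value is set against the 2 BSS arrays of highest rod mean. Krt12, a keratin of the corneal surface, had a value of 2.38 (SE 1.46), with single steroid arrays at 6.82 at day 7 and 9.20 at day 30.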
